A study of Mus musculus with 6 samples.

Results

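Early cortical neuron identity genes are the genes that mark the first neurons born in the embryonic cortex, the Cajal-Retzius cells of the marginal zone, the preplate and the deep layers. The 9 described here were Reln, Trp73, Calb2, Ebf2, Tbr1, Bcl11b, Bcl11a, Fezf2 and Neurod6, chosen by name among the 16593 genes with a probe on the array, and every probe carrying one of these symbols was taken, 11 of 25696. Of the 9 genes, 7 were detected on all 6 arrays, and Trp73 and Neurod6 were detected on none. None of the 7 detected genes differed between knockout and control brains beyond the spread of the replicates.

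The cortex is built from the inside out. A first layer of neurons, the preplate, forms on the surface of the brain and is then split by later neurons into a marginal zone above and a subplate below. Cajal-Retzius cells arise from the borders of the pallium, among them the cortical hem, and secrete Reelin, an extracellular protein that guides migrating neurons to their layer. Neurons of the deep layers leave the cell cycle first, and a small set of transcription factors directs their axons to the thalamus, the brainstem and spinal cord, or the opposite hemisphere.

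RNA came from brains of C57/BL6 embryos at E12.5, where E counts embryonic days, when preplate and early deep-layer neurons are being born. Knockout embryos (n = 3) were homozygous for a trap in Rest, written Rest GTi/GTi, and for floxed p53, written p53 fl/fl, and were Nestin Cre+. Controls (n = 3) were littermates that had both pairs of alleles but no Cre. GTi is a gene trap placed backwards in the first intron of Rest, and Cre turns it around so that transcription stops ahead of the coding exons. Both groups therefore carried the trap and the floxed p53 alleles, and the groups differed in a Cre driven by the Nestin promoter, which is active in neural progenitors and passes the recombined alleles to their progeny. Rest encodes a repressor of neuronal genes and p53 a regulator of cell death after DNA damage. The samples are labelled as biological replicates, with no litter, sex or slide given. The p-values measure the spread between these 6 samples, and the number of arrays limits the precision.

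Between 13416 and 13889 probes were detected per array, and the array of knockout brain 2 stood apart, with a score of 40.7 on the first principal component against -14.8 to -0.84 for the other 5. Rest had 1 probe, which was above background on 0 of 6 arrays, so the targeted gene could not check the labels. Nes, the gene for the progenitor filament Nestin, was high on all 6 arrays on its brighter probe, with log2 levels of 13.62 to 13.96. Its other probe gave 10.57 to 11.11. Differences and list medians that rest on knockout brain 2 are given with and without it. Correlations are given over all 6 arrays only.

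REST binds a long element, RE1, whose conserved parts read TTCAGCACC and GGACAGNGC (N is any base). Promoter sequences from RefSeq (GRCm38.p6, 250 bases before to 50 bases after a start site) were found for 7 of the 9 genes, 8 promoters in all. Of 32851 promoters from the same source, 0.371% held the first part of RE1 and 1.92% the second, on either strand. None of the 8 held one. With such low shares, the lack of a match in 8 promoters says little about REST sites in these genes. An RE1 further than 50 bases after the start site was not searched for. The promoters of Tbr1, Fezf2 and Neurod6 are given here because Tbr1 and Fezf2 are the selectors of the main deep-layer fates and Neurod6 is a target of the proneural factors that bind E-boxes. Capitals mark the E-box CAGNTG, the BCL11 motif TGACCA and the homeodomain core TAATTA, read on both strands.
Tbr1, chr2:61804203-61804502, plus strand: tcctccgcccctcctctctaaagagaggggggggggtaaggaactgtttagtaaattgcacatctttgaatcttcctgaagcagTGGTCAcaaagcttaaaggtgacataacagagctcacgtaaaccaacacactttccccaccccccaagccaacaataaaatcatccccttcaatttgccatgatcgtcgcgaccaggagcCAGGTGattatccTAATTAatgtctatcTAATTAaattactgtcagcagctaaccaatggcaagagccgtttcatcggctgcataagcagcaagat
Fezf2, chr14:12345816-12346115, minus strand: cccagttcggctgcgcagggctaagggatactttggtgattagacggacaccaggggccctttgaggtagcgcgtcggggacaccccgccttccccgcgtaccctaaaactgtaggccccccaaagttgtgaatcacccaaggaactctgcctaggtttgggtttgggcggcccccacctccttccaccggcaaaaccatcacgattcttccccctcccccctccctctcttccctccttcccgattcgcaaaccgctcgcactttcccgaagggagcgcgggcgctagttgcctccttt
Neurod6, chr6:55681214-55681513, minus strand: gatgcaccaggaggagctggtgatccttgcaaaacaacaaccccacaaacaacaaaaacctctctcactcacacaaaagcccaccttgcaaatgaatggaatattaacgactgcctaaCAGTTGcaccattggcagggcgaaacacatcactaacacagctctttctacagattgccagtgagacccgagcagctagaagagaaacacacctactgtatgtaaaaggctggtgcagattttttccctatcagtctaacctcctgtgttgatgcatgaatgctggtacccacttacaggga
In the Tbr1 promoter an E-box lay at -46 from the start site, 2 homeodomain cores lay at -33 and -18, and a BCL11 motif lay at -166 on the opposite strand. Homeodomain cores were present in 5.29% of all promoters, BCL11 motifs in 13.6% and E-boxes in 51.4%. The Neurod6 promoter held 1 E-box, at -132. The Fezf2 and Bcl11a promoters held none of the motifs searched, which also included the T-box AGGTGTGA (1.28% of all promoters) and the palindrome CCCNNGGG bound by EBF factors (13.7%). The palindrome occurred at 2 places in the Reln promoter and at 1 in that of Bcl11b, and both Trp73 promoters held E-boxes. These matches describe the letters of the windows and were not tested for binding.

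No probe of the 9 genes passed the test between knockout and control brains. Levels below are background-corrected intensities on the log2 scale, and a difference is the knockout mean minus the control mean on that scale, with its standard error (SE) and p from the moderated test of limma. Limma called 0 of the 9 probes tested at an adjusted p under 0.05 (Benjamini-Hochberg over 13755 probes), where the background over all probes was 0% (0 probes), and each of the 9 had an adjusted p of 0.999. Before adjustment 0 of 9 had a p under 0.05, against 632 probes or 4.59% of all probes tested. The methods' t-test likewise called 0 probes of 13755 after adjustment. The ranges of the 2 groups overlapped for all 9, while 9.30% of all probes had groups that did not overlap. Differences were higher in knockout brains for 4 probes and lower for 5, and the 95% interval of each held 0. The median size of the difference was 0.13 over the 9 probes and 0.12 over all probes tested. In RNA from whole tissue, fewer cells of a type and less RNA per cell cannot be told apart.

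**Figure D1:**
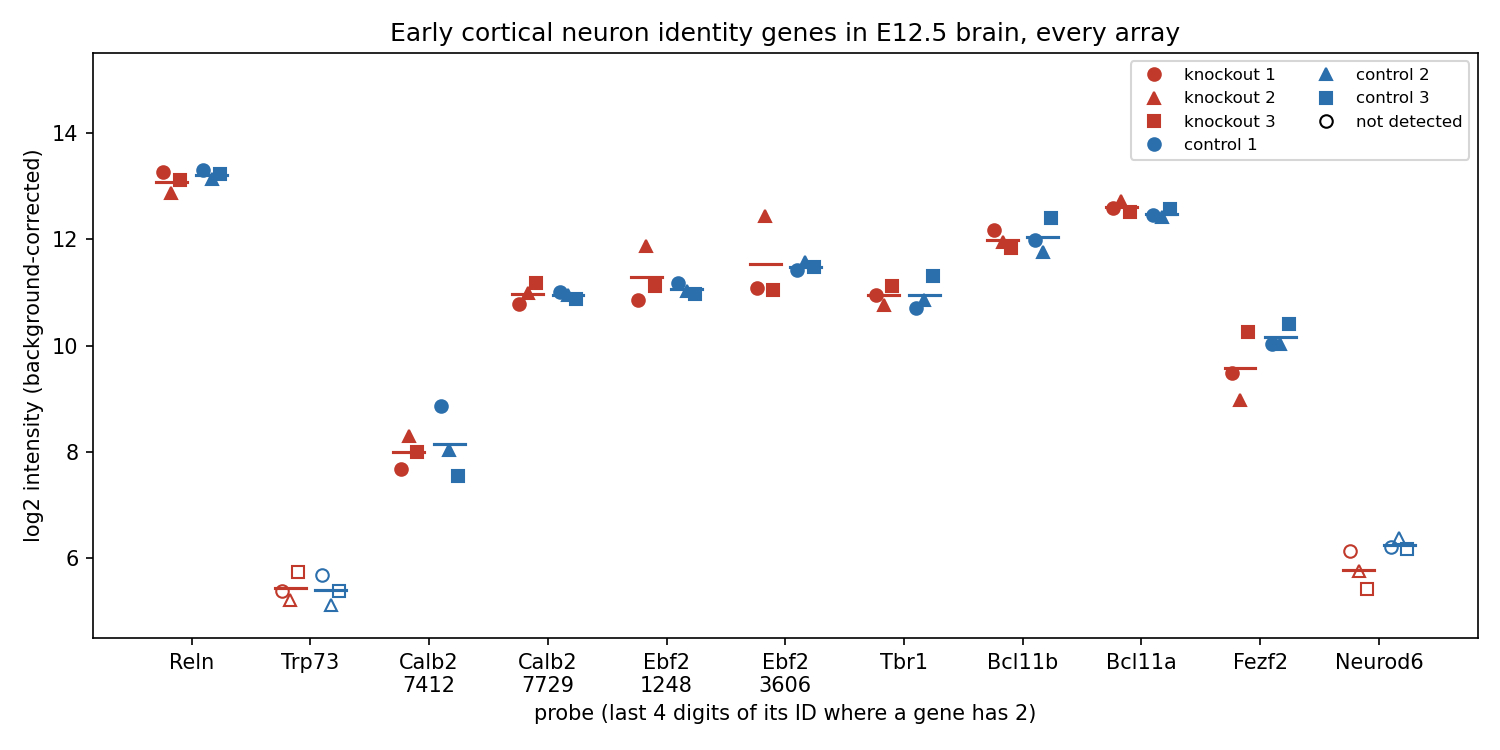
Log2 intensity (background-corrected) of the 11 probes on each of the 6 arrays, with knockout brains in red, controls in blue, and a horizontal bar at each group mean. Open symbols mark arrays on which a probe was not detected, all 6 for Trp73 and Neurod6. Knockout brain 2 was the highest of the 6 for both Ebf2 probes and the lowest for Fezf2 and Reln.

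Reln encodes the Reelin protein itself and is the defining product of Cajal-Retzius cells. Its levels were 13.26, 12.86 and 13.12 in knockout brains 1, 2 and 3 and 13.30, 13.12 and 13.23 in control brains 1, 2 and 3. The difference was -0.13 (SE 0.14, 95% interval -0.47 to 0.21, unadjusted p = 0.381, limma). Knockout brain 2 was the lowest of the 6 brains, and the other 2 knockout brains lay within or level with the control range. Without knockout brain 2 the difference was -0.02.

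Calb2 encodes calretinin, a calcium-binding protein of Cajal-Retzius cells. Its brighter probe, ILMN_2827729, gave deposited intensities of 2003, 2272 and 2550 in knockout and 2302, 2236 and 2125 in control brains 1 to 3. The log2 difference was 0.03 (SE 0.14, 95% interval -0.30 to 0.36, limma), and the 3 control brains fell inside the range of the knockouts. The other probe, ILMN_2597412, was dim and spread more widely, with 7.69, 8.30 and 8.01 in knockout and 8.86, 8.04 and 7.55 in control brains. Its difference was -0.15 (SE 0.34, limma), and it turned to 0.20 without control brain 1. The highest and the lowest of the 6 values of this probe were both controls.

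Ebf2 encodes a helix-loop-helix factor of the Early B-cell Factor family that Cajal-Retzius cells express, and it showed the widest split between replicates. The probe ILMN_2883606 gave 11.09, 12.43 and 11.05 in knockout and 11.41, 11.57 and 11.47 in control brains 1 to 3. Knockout brain 2 lay above all controls, while knockout brains 1 and 3 lay below all controls. The deposited intensity was 5779 on the array of knockout brain 2 and 2374 to 3288 on the other 5. The second probe, ILMN_1251248, gave 10.86, 11.87 and 11.12 in knockout and 11.18, 11.03 and 10.97 in control brains. Here too knockout brain 2 was the highest and knockout brain 1 the lowest, but knockout brain 3 lay among the controls. The SD of the 3 knockout brains was 0.79 and 0.53 for the 2 probes, against 0.08 and 0.11 for the controls. The differences were 0.04 (SE 0.36, 95% interval -0.82 to 0.90, limma) and 0.22 (SE 0.26, 95% interval -0.39 to 0.84, limma). Without knockout brain 2 both turned negative, at -0.41 and -0.07.

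The Trp73 probe was not detected on any array. Trp73 encodes p73, a relative of p53 that marks Cajal-Retzius cells of the hem and the choroid plexus. Its log2 values were 5.39, 5.21 and 5.74 in knockout and 5.68, 5.13 and 5.40 in control brains 1 to 3, below the lowest level detected on the arrays, 6.47 to 6.62. It was not tested and no fold is given, since neither group was above background.

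Tbr1 encodes a T-box factor of preplate, subplate and layer VI neurons. Its levels were 10.96, 10.77 and 11.13 in knockout and 10.71, 10.86 and 11.30 in control brains 1 to 3. All 3 knockout brains fell inside the control range, and the difference was -0.01 (SE 0.19, 95% interval -0.46 to 0.44, limma). Its sign turned with the brains included, from -0.13 without control brain 1 to 0.16 without control brain 3.

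Bcl11b, also called Ctip2, encodes a zinc finger factor required for the axons of corticospinal neurons. Levels were 12.18, 11.95 and 11.83 in knockout and 11.98, 11.75 and 12.40 in control brains 1 to 3. The knockout brains again lay inside the control range, with a difference of -0.06 (SE 0.20, 95% interval -0.52 to 0.41, limma). Without control brain 3, the highest of the 6, the difference was 0.12.

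Bcl11a encodes Ctip1, a related zinc finger factor found in projection neurons of several layers. Levels were 12.59, 12.71 and 12.52 in knockout and 12.46, 12.41 and 12.56 in control brains 1 to 3. This probe had the smallest range over the 6 brains of the 9 tested, 0.30, with an SD of 0.10 in knockout and 0.08 in control brains. The difference was 0.13 (SE 0.12, 95% interval -0.15 to 0.41, unadjusted p = 0.315, limma). It was positive whichever brain was left out, from 0.08 to 0.17, but knockout brain 3 lay below control brain 3 and the groups overlapped.

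Fezf2 encodes a zinc finger factor that selects the subcerebral projection fate in layer V, and it had the largest difference of the 9 probes. Levels were 9.48, 8.97 and 10.26 in knockout and 10.02, 10.03 and 10.42 in control brains 1 to 3. Knockout brains 1 and 2 lay below all controls and knockout brain 3 lay between controls. The difference was -0.59 (SE 0.32, 95% interval -1.34 to 0.17, unadjusted p = 0.109, adjusted p = 0.999, limma), larger in size than 96.8% of all probes tested. It was -0.29 without knockout brain 2 and -0.93 without knockout brain 3. In knockout brains 1, 2 and 3 the medians of several other lists, relative to the control mean, followed the same order. They were -0.54, -1.48 and 0.07 for cortical hem and septum genes, -0.61, -2.62 and 0.31 for mesenchyme and meninges genes, -0.46, -1.46 and 0.11 for choroid plexus genes and -0.31, -0.67 and 0.03 for endothelial and pericyte genes. Their part in the Fezf2 values was not tested.

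Neurod6 encodes a helix-loop-helix factor of postmitotic pyramidal neurons, also called Math-2 or NEX. Its probe was not detected on any array. The values were 6.14, 5.77 and 5.42 in knockout and 6.22, 6.39 and 6.17 in control brains 1 to 3. They lay at background in both groups, so the probe was not tested and carries no fold.

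**Figure D2:**
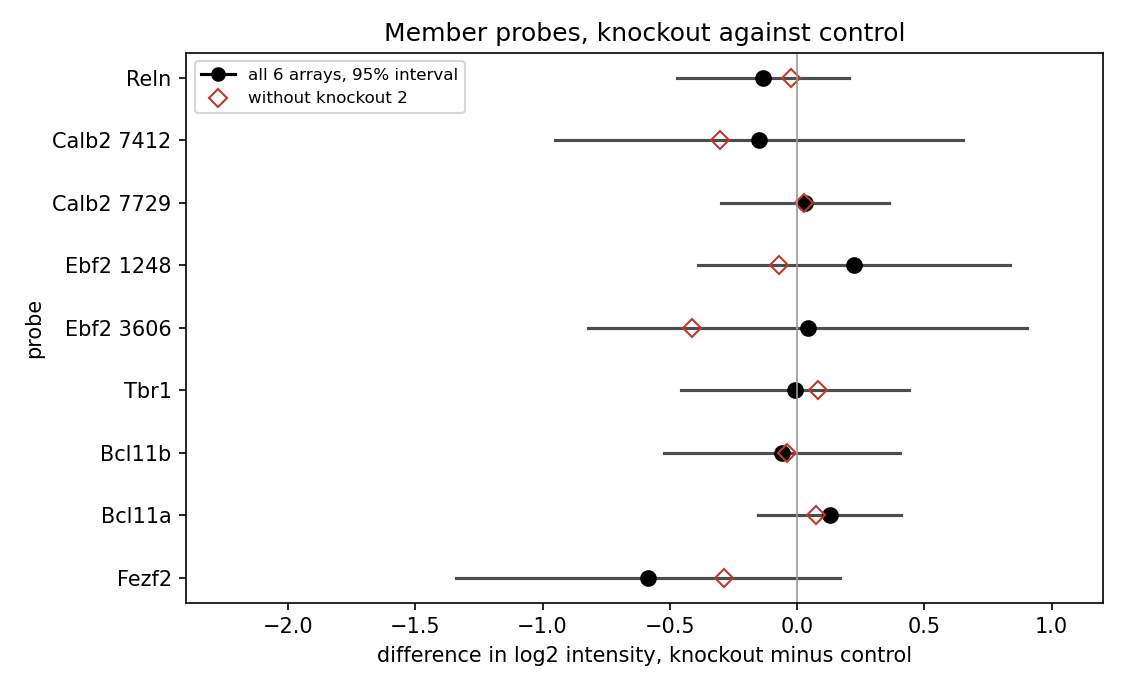
Difference in log2 intensity, knockout minus control, of the 9 tested probes (black points) with 95% intervals from limma (lines), and the difference without knockout brain 2 (red diamonds). All 9 intervals hold 0, and both Ebf2 probes change sign without knockout brain 2.

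Taking 1 probe per gene, the brightest, the 7 detected genes were split into 3 higher and 4 lower in knockout brains, with a median difference of -0.01. Over all 9408 genes tested, 48.7% were higher and the median was also -0.01. Before adjustment 0 of the 7 genes had a p under 0.05, against 4.17% of all genes, and 0 of the 7 had groups that did not overlap, against 9.07% of all genes. Relative to the control mean of each gene, the median of the 7 genes was 0.00, -0.10 and 0.04 in knockout brains 1, 2 and 3 and -0.07, -0.09 and 0.08 in control brains 1, 2 and 3. The 2 groups overlapped fully in this measure. Without knockout brain 2 the split stayed at 3 higher and 4 lower, with a median of -0.02. Knockout brain 2 was the highest or lowest of the 6 brains for 5 of the 9 probes. Over all probes tested it was so for 45.2%.

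The 7 genes did not move as 1 block across the 6 brains. Of the 21 pairs, 11 had a positive Pearson r, the median r was 0.00, and r ranged from -0.81 for Reln with Ebf2 to 0.62 for Reln with Fezf2. Tbr1 and Fezf2 had an r of 0.61, Tbr1 and Bcl11b of 0.56, and Fezf2 and Bcl11a of -0.72. These are descriptions over 6 arrays that share 1 normalisation and 1 array that stood apart. The genes most like each member, by Pearson r over the 6 arrays among 9401 other genes, were Dpp7 (0.99) and Kcnk2 (0.99) for Reln, and Snrpd3 (0.99) and Stimate (0.98) for Calb2. For Ebf2 they were B3gat1 and Fbh1 (0.99 each), and for Tbr1 they were Rnf215 and Mcph1 (0.98 each). For Bcl11b they were Rab3gap1 (0.99) and Adgrg2 (0.98), for Bcl11a Marchf6 (0.99) and Cfl2 (0.98), and for Fezf2 Zfp280b and Vegfc (0.99 each). Between 32 genes, for Tbr1, and 187 genes, for Fezf2, had an r over 0.9 with a member.

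Other Cajal-Retzius and preplate genes were tested in 9 of 13 cases. Of the 9 genes, 5 were higher and 4 lower in knockout brains, with a median difference of 0.11, and limma called 0 of them. Nr2f2, a nuclear receptor of ventral and caudal cortex, had a difference of 0.35 (SE 0.18, limma), with 9.89, 10.16 and 9.92 in knockout and 9.59, 9.37 and 9.96 in control brains. A second Nr2f2 probe, ILMN_3076625, detected on all 6 arrays, had means of 7.95 in both groups. Ebf3, an Ebf2 paralogue, had 11.71, 12.25 and 11.44 in knockout and 11.56, 11.46 and 11.64 in control brains, a difference of 0.25 (SE 0.21, limma). As with Ebf2, knockout brain 2 was the highest of the 6, and without it the difference was 0.02. At the other end, Nr2f1, a paralogue of Nr2f2, had a difference of -0.13 (SE 0.15, limma) and Zic1, a zinc finger factor of the hem and septum, of -0.22, with all 3 knockout brains below all 3 controls. Zic1 alone of the 9 genes had groups that did not overlap, against 9.07% of all genes. Knockout brain 2 was the highest of the 6 brains for 6 of the 9 genes, among them Ebf1 (10.35), Lhx1 (11.95) and Cxcr4 (12.19). Without it the median of the list turned from 0.11 to -0.14, with 3 of 9 genes higher.

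Hem and septum genes mark the source tissue of many Cajal-Retzius cells, and all 10 of the 10 tested (of 12) were lower in knockout brains, with a median difference of -0.65 and 0 called by limma. Relative to the control mean, the median was 0.08, 0.07 and -0.20 in control brains 1, 2 and 3. Knockout brains 1 and 2 were low and knockout brain 3 was not. Without knockout brain 2 the median was -0.21 and 2 of the 10 were higher. Rspo2, an activator of Wnt signalling, was at 8.75, 7.87 and 9.54 in knockout and 9.78, 9.81 and 9.95 in control brains. Its difference was -1.13 (SE 0.39, unadjusted p = 0.0228, adjusted p = 0.999, limma). Groups did not overlap for Rspo2 alone of the 10, a share near the 9.07% of all genes. Ebf2, Ebf1, Ebf3, Lhx1 and Cxcr4 were high in knockout brain 2, where the median of the hem list was lowest. Other genes of Cajal-Retzius cells and the preplate went the other way there. Reln (12.86) and Zic1 (13.89) were the lowest of the 6 brains, and Nr2f1 (15.59) lay below all controls. In the same brain the median of the midbrain, hindbrain and Hox list was 0.30 above the control mean, and that of pan-neuronal genes 0.34. No Hox gene was tested, so the first of these medians is over 8 midbrain and hindbrain genes. The RNA was from whole tissue, so these levels cannot be assigned to Cajal-Retzius cells.

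**Figure D3:**
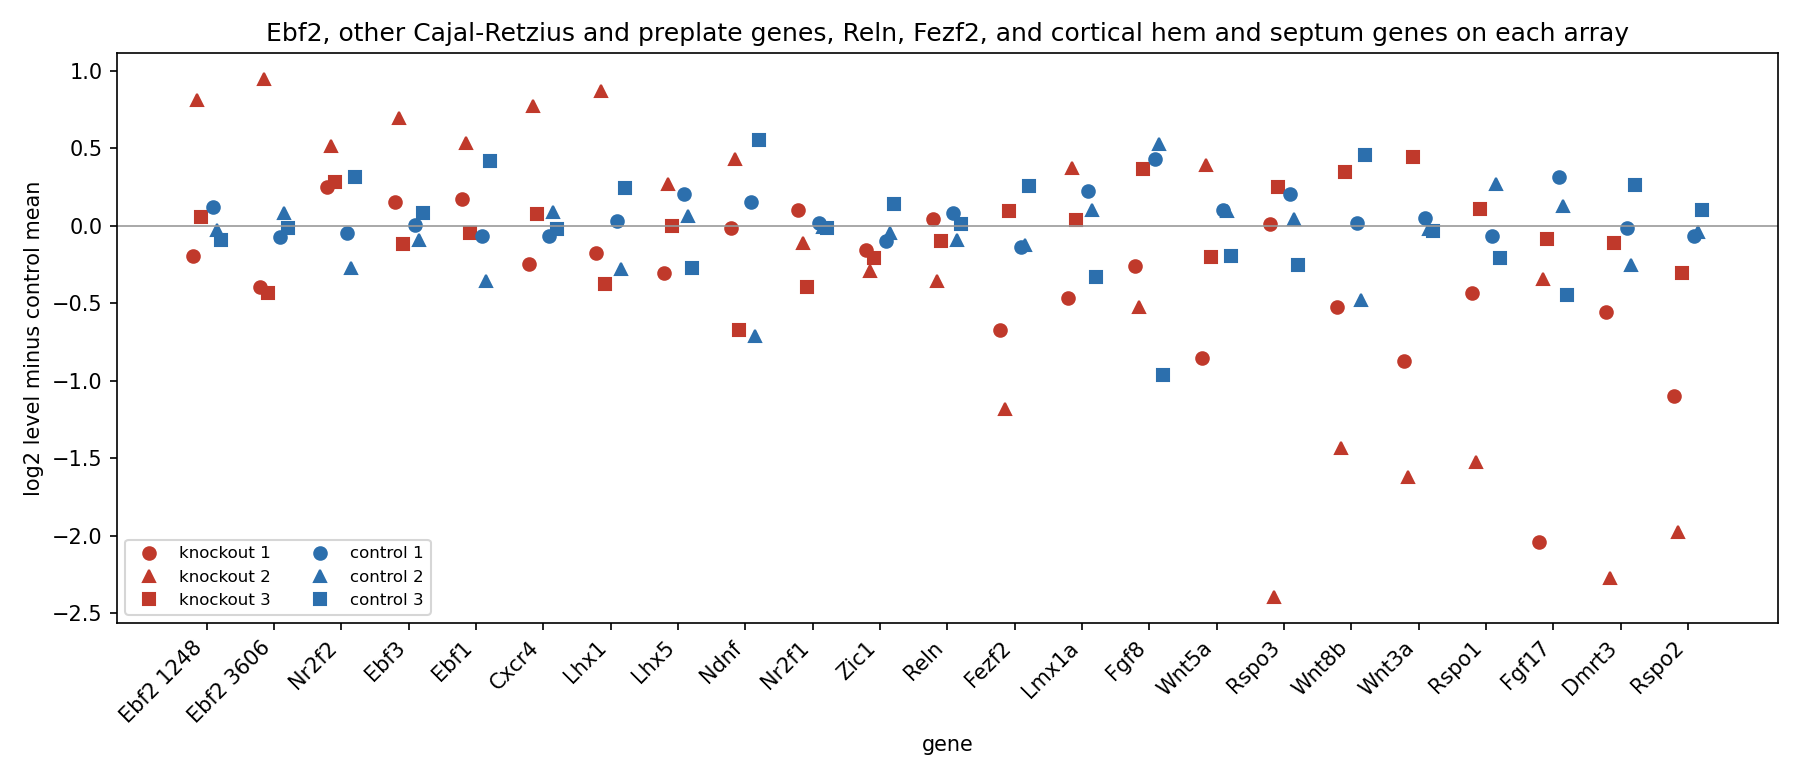
Log2 level minus the control mean on each of the 6 arrays for both Ebf2 probes, the 9 other Cajal-Retzius and preplate genes tested, Reln, Fezf2 and the 10 cortical hem and septum genes tested. Red triangles, knockout brain 2, lie above the controls for Ebf2, Ebf3, Lhx1 and Cxcr4 and below them for Fezf2, Reln, Rspo2 and Dmrt3.

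The Reelin pathway downstream of Reln runs from the receptors Vldlr and Lrp8 through the adaptor Dab1 and the Src family kinases to Crk and Crkl. Cdk5 and its activator Cdk5r1 were counted in the same list. Of 16 genes 14 were tested, 5 higher and 9 lower, with a median difference of -0.02 and 0 called. Vldlr had 11.32, 11.91 and 11.47 in knockout and 11.53, 11.48 and 11.76 in control brains, a difference of -0.02 (SE 0.18, limma), and 0.10 and -0.11 on 2 other probes. Dab1 had one of 0.03 (SE 0.17, limma) on its brightest probe and 0.45 and -0.04 on 2 others. Lrp8 and Fyn had no tested probe. The highest differences relative to their error were those of Crkl, 0.17, and Src, 0.08, and the lowest were those of Crk, -0.10, and Cdk5r1, -0.20. Dimmer second probes of Crk and Src had differences of 0.07 and 0.03. Groups did not overlap for 1 gene of the 14, Crk, where the share over all genes was 9.07%.

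Other deep-layer and subplate genes, partners of Tbr1, Bcl11b and Fezf2 in layers V and VI, were tested in 16 of 20 cases. Of these, 6 were higher and 10 lower, with a median difference of -0.09 and 0 called by limma. Wnt7b, a secreted Wnt ligand, and Lmo3, a LIM-only cofactor, had differences of 0.09 (SE 0.13, limma) and 0.10 (SE 0.15, limma), and second probes gave 0.17 and 0.08. Tle4, a corepressor of layer VI neurons, was at 13.99, 13.89 and 13.65 in knockout and 14.03, 14.10 and 14.16 in control brains, a difference of -0.25 (SE 0.13, unadjusted p = 0.101, limma). Its groups did not overlap, but 2 dimmer Tle4 probes went the other way. The probe ILMN_2746356 had a difference of 0.20, with all knockout brains above all controls. ILMN_3011214 had one of 0.24, with overlapping groups. Ldb2, a LIM-binding cofactor of layer V neurons, had a difference of -0.27 (SE 0.14, unadjusted p = 0.0941, limma) and -0.18 on a second probe, and neither overlapped. Groups did not overlap for 2 of the 16 genes, against 9.07% of all genes. These 16 genes, like the members, were called nowhere after adjustment.

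Upper-layer and callosal genes, which mark neurons born mostly after this stage, were tested in 8 of 10 cases. The median difference was -0.11, with 3 higher, 5 lower and 0 called. This median and these counts include Pou3f2, described next. With only probes detected on all 6 arrays the median was -0.21. Pou3f2, the POU factor Brn2, was at 7.89, 6.78 and 7.13 in knockout and 6.65, 6.45 and 5.89 in control brains. Groups did not overlap for this gene alone of the 8, against 9.07% of all genes. All 3 knockout brains lay above all controls, but the probe was detected on 3 knockout arrays and 1 control array. It passed the detection filter through the group where it was higher, and with 2 of 3 controls not above background its difference and p are not given. Rorb, a nuclear receptor of layer IV, had a difference of 0.09 (SE 0.11, limma) on its brightest probe. A dimmer Rorb probe, like that of Pou3f2, was detected on 3 knockout arrays and 1 control array, so no difference is read from it. Lmo4 and Cux2, of upper layers, had differences of -0.21 (SE 0.14, limma) and -0.33 (SE 0.18, limma). Of 5 Cux1 probes, the brightest had a difference of -0.21, and others had -0.20, -0.29 and -0.03, each with overlapping groups. The probe ILMN_1229977, picked after its values were seen, had -0.48 (SE 0.13, unadjusted p = 0.00957, adjusted p = 0.980, limma).

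The pallial neurogenic sequence leads from radial progenitors through Neurog2 and Eomes to Neurod1 and Tbr1. Of 13 genes 8 were tested, 5 higher and 3 lower, with a median difference of 0.01 and 0 called. Neurod1 was at 10.94, 10.82 and 10.78 in knockout and 10.59, 10.38 and 10.77 in control brains, with all knockout brains above all controls and a difference of 0.26 (SE 0.14, unadjusted p = 0.102, limma). Groups did not overlap for Neurod1 alone of the 8 genes, against 9.07% of all genes. Neurod4, a related factor, had a difference of 0.25 (SE 0.24, limma). At the other end, Zbtb18, a zinc finger repressor of cortical neurons, had -0.27 (SE 0.20, limma) on its brightest probe and -0.11, -0.06, 0.06 and -0.07 on 4 others. Neurod2, a relative of Neurod6 in postmitotic pyramidal neurons, was at 8.56, 8.09 and 8.11 in knockout and 8.78, 8.42 and 9.10 in control brains, a difference of -0.51 (SE 0.22, unadjusted p = 0.0497, adjusted p = 0.999, limma), with overlapping groups. Eomes and Neurog2 each had a difference of 0.01, and a second Neurog2 probe one of -0.14. Emx1, Emx2, Pax6, Nhlh1 and Slc17a7 had no tested probe.

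**Figure D4:**
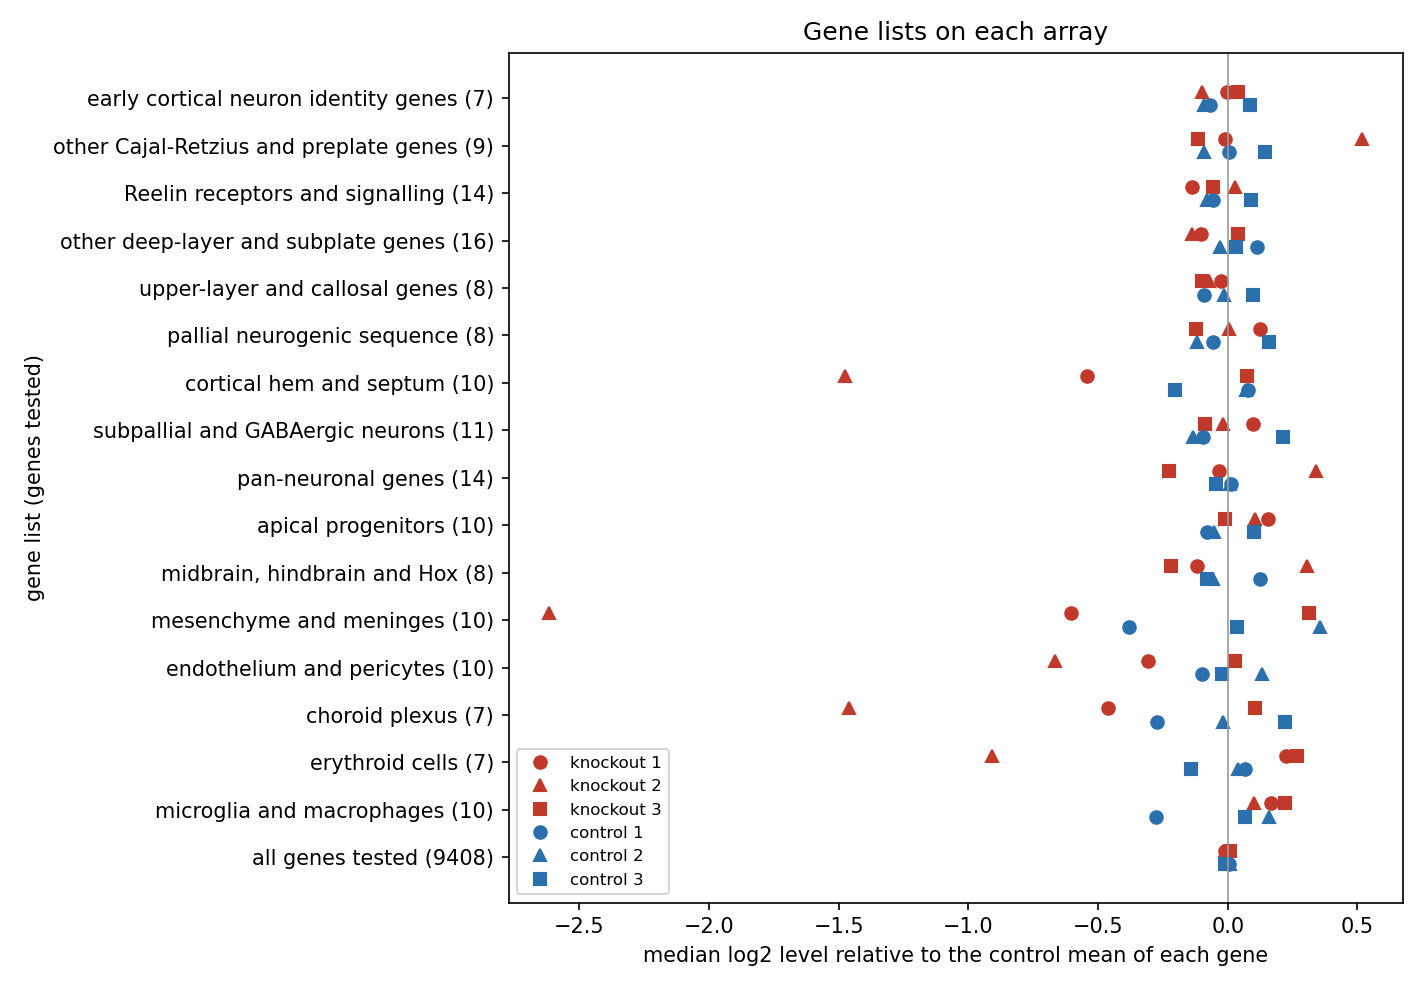
Median log2 level of each gene list on each array, relative to the control mean of each gene, with the number of genes tested in parentheses. Knockout brains are red and controls blue. The early cortical neuron identity genes lie between -0.10 and 0.08 on all 6 arrays, while knockout brain 2 is lowest for mesenchyme (-2.62), the hem (-1.48) and choroid plexus (-1.46).

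Marker genes of several tissues and cell types did not have the same levels on every array. Mesenchyme and meninges genes were lower in knockout brains in 10 of 10 cases, with a median difference of -0.89 that was -0.09 without knockout brain 2. Their summed level was 2235 to 12359 in knockout and 8987 to 14257 in control brains. Of the choroid plexus genes 6 of 7 were lower (summed level 14739 to 22299 against 21915 to 32094). Their median difference was -0.63, and -0.22 without knockout brain 2. Lower too were 8 of 10 endothelial and pericyte genes (3656 to 6274 against 5996 to 6719). Their median difference was -0.29, and -0.17 without knockout brain 2. Pan-neuronal genes had a median difference of 0.04, but knockout brain 2 was the highest of the 6 for 13 of 14 of them, at a median of 0.34 above the control mean, and their summed level there was 187170 against 125648 to 146603 on the other 5 arrays. Without it their median was -0.11. Subpallial genes had a median of -0.01 over 11 genes (-0.04 without knockout brain 2). Apical progenitor genes had one of 0.11, with 8 of 10 higher (0.13 without knockout brain 2). Midbrain and hindbrain genes had one of -0.05 over 8 genes, none of them a Hox gene, and of -0.28 without knockout brain 2. Every list was called by limma in 0 cases. Whether sample content differed, and its part in the values of Ebf2, Fezf2 and Reln in knockout brain 2, was not tested.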

How the data were processed

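The Illumina MouseRef-8 arrays were read by the authors with BeadStudio 3.0 and quantile-normalized with lumi; the lumi version and any background subtraction are not given in the sources used here. A linear intensity and a detection p-value per probe and array were deposited. The deposited table is named as non-normalized, yet sorted intensities differed by at most 1.61% between arrays, so quantile normalization was inferred to have been applied. Of 25699 lines, 2 had blank ID cells, at lines 3894 and 3896. The first blank was followed by 21806 lines (84.9%), and the IDs after the second blank were displaced by 2 lines. Over adjacent probes of 1 gene, r was 0.43 with IDs as deposited before the blanks, and after them 0.47 with a move of 2 lines against 0.26 as deposited. The blanks and the ID between them were dropped, and the other IDs were paired with values in order. Symbols came from the platform annotation, updated by gene identifier for 12944 probes.

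Intensities were corrected with neqc (offset 16) in limma 3.58.1 under R 4.3.3. Probes detected (deposited p-value under 0.05) on 3 or more of the 6 arrays were tested. Groups were compared with lmFit and eBayes, two-sided and without covariates, and adjusted by Benjamini-Hochberg over 13755 probes. The script was tested on simulated data. The members and lists were chosen with earlier results of these data known, and lists are described by counts and medians. Named genes were all members, the 2 highest and 2 lowest by moderated t of each of the 5 related lists, and the 2 genes most correlated with each tested member; other list genes were named after their values were seen. Erythroid genes had a median difference of -0.09 (1 of 7 higher; 0.18 and 5 of 7 without knockout brain 2) and microglial genes of 0.26 (7 of 10 higher). Promoters came from RefSeq (GRCm38.p6). The alternatives were other background corrections, normalization, detection filters and tests, the deposited IDs, the series matrix table, the mean over probes, a replicate block and leaving out each brain.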

Additional observations from a re-analysis of the deposited data

How the results depend on the processing

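Under 17 alternatives, 0 member probes were called (adjusted p from 0.667 to 1.00), and 128 of 138 member differences kept their direction. The 10 exceptions came from leaving out 1 brain. The trend and robust options, the detection filters and the replicate block cannot change these differences, so agreement there was fixed in advance. The methods' t-test has the same differences as the fit without background correction, so it is no further check of direction. With IDs as deposited and in the series matrix table, IDs after the blanks stood beside values of other probes. Member differences there, apart from Bcl11a and Bcl11b, are not those of the genes named, yet they are counted among the 138. Leave-one-out differences ran from -0.45 to 0.20 and from -0.065 to 0.13 for the Calb2 probes, from -0.070 to 0.44 and from -0.41 to 0.28 for Ebf2, from -0.13 to 0.16 for Tbr1 and from -0.20 to 0.12 for Bcl11b. Medians ran from -0.092 to 0.034 for the 7 identity genes, and from -0.14 to 0.26 for other Cajal-Retzius and preplate genes. They ran from -0.20 to -0.010 for other deep-layer genes and from -0.15 to -0.019 for upper-layer genes. For midbrain and hindbrain genes, with no Hox gene tested, they ran from -0.28 to 0.23. Over all probes, 1 was called without background correction, with normexp, with median centring, with the trend and robust options and in the series matrix table, and 0 under the others. With IDs as deposited, the upper-layer median was -0.25 and the microglial median -0.018; in the series matrix table the microglial median was -0.0075. Medians of hem, mesenchyme and choroid plexus genes were -0.36, -0.53 and -0.31 without background correction, -0.25, -0.12 and -0.056 with IDs as deposited, -0.21, -0.052 and -0.032 in the series matrix table, and -1.08, -1.51 and -1.04 without knockout brain 3; the microglial median was 0.094 without background correction. Medians with IDs as deposited and in the series matrix table are mostly over values of other probes, since the IDs were displaced. The causes of the other shifts were not tested.

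Same-numbered brains did not deviate together (r of -0.01, -0.08 and -0.15), so the numbers were not used as pairs. A replicate block gave 0 called probes, all adjusted p at 0.999 for the members, and a member median of -0.01. Probes for Trp73, Neurod6 and Rest at background give no information on these genes, and 3 arrays per group limit all intervals.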
